A study of Mus musculus with 20 samples.

Results

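The genes described here encode the proteins of the mitochondrial ribosome. They are the 78 protein-coding rows of the deposited table, of 26440 rows in all, whose symbol is Mrpl or Mrps followed by a number and at most a letter a, b or c. Of these, 51 encode proteins of the large subunit and 26 proteins of the small subunit. The remaining gene, Mrps36, carries the family name but its product is now known as a subunit of the 2-oxoglutarate dehydrogenase complex. All 78 passed the filter on low values and were among the 18125 genes tested. The rule used names only, so no measured value chose a member.

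The series compared mice in which Creld1 was knocked out in the myocardium with wild-type controls, all of strain C57BL/6N. Creld1 encodes a membrane protein linked to heart valve and septum formation. Whole hearts of E13.5 embryos gave 4 knockout and 4 wild-type libraries. From 3 knockout and 3 wild-type pups of postnatal day 3 (P3), the atria and the ventricles of each pup were sequenced separately, which gave 3 libraries in each of the 4 groups. The sources used here do not give the driver of the deletion, the deleted exons or the genotype of the controls beyond "wild-type". Cells outside the myocardium keep the gene by this design. Each library came from a separate embryo or pup, apart from the shared source of the 2 chambers, and each same-numbered pair of knockout and wild-type libraries came from 1 litter.

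Mitochondria translate a small set of inner-membrane proteins, all subunits of the respiratory chain and the ATP synthase, on ribosomes of their own. The ribosomal RNAs come from mitochondrial DNA, whereas every protein of these ribosomes is encoded in the nucleus, made in the cytosol and imported. Many of these proteins descend from bacterial ribosomal proteins and others arose later and have no bacterial counterpart. The heart relies on respiration for its contraction, and inherited defects of several of these proteins cause cardiomyopathy in people.

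The mammalian genes for these proteins are known for promoters without a TATA box, with binding sites for NRF1, for GABP and other ETS factors, and for YY1. RefSeq promoter windows of 300 bases (250 before and 50 after the start, GRCm38.p6) were found for 69 of the 78 genes, in 75 windows. The ETS core CCGGAAG, searched on both strands, was present in 26 of the 75 windows (34.7%), compared with 15.7% of 13859 windows of tested protein-coding genes. The YY1 motif AANATGGCG was present in 11 windows (14.7% against 4.5%), the palindromic NRF1 motif in 3 windows (4.0% against 1.9%), and TATAAA in 5 (6.7% against 8.0%). None of the first 3 motifs was found for 33 of the 69 genes, at least 1 for 36, and 2 or more for 4. Of 31 ETS matches, 17 lay within 60 bases before the start. A match describes letters in a window and is not a measured binding site.

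The following windows of 120 bases end at the base before the RefSeq start and read 5′ to 3′ on the strand of the gene. They are shown for the genes whose levels are described in most detail and for an NRF1 match, with the matched motif in capitals. Mrpl52 (chr14:54426789-54426908, plus strand) and Mrps22 (chr9:98601680-98601799, minus strand) held an ETS core, on the opposite and on the same strand as the gene. Mrpl9 (chr3:94443216-94443335, plus strand) held the NRF1 motif. Mrps23 (chr11:88204268-88204387, plus strand) and Mrps12 (chr7:28741822-28741941, minus strand) held none of the 3 motifs in these bases, and the ETS core of each lay just after the start.
Mrpl52: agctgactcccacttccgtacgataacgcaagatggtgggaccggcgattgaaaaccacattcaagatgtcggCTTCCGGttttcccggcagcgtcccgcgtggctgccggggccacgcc
Mrps22: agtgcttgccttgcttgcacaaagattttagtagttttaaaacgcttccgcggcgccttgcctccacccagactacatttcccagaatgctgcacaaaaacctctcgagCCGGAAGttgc
Mrpl9: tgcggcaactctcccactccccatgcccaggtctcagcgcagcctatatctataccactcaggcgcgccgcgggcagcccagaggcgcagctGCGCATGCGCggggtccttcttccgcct
Mrps23: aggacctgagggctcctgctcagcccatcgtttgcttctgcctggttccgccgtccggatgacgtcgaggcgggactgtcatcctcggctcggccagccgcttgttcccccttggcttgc
Mrps12: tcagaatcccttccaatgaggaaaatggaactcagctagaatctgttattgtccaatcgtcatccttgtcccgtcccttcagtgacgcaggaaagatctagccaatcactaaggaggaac

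The YY1 motif stood mostly just after the start. Of the 10 sites that had 8 bases of the window on each side (all but that of Mrps24), 8 lay after the start and in the orientation of the gene, with the first base of the motif between positions 9 and 28 counted from the start. Of the 8, those of 5 genes are printed with 8 bases on each side and the motif in capitals. They lie at chr11:94653791-94653815 (Mrpl27, plus strand), chr10:95501906-95501930 (Mrpl42, minus), chr17:46111007-46111031 (Mrps18a, plus), chr13:99344792-99344816 (Mrps27, plus) and chr13:118387221-118387245 (Mrps30, minus). The other 2 sites, of Mrpl36 and Mrps11, lay before the start in the opposite orientation.
Mrpl27: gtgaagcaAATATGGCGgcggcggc
Mrpl42: attgaagcAAGATGGCGagcgcgcg
Mrps18a: tgcgttccAAGATGGCGgccctcag
Mrps27: tgcgctccAAGATGGCGgctcccat
Mrps30: ggcgggcgAAAATGGCGgcggccag

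The genes were spread over 17 chromosomes, and many stood head to head with another gene. In the GENCODE M21 annotation of GRCm38, 18 of the 78 (23.1%) had a protein-coding neighbour on the opposite strand that started within 1000 bp, compared with 1416 of 16692 protein-coding genes of the table (8.5%). Mrps12 and Sars2, which encodes the mitochondrial seryl-tRNA synthetase, started 172 bp apart. Mrpl49 and the cytosolic ribosomal protein gene Fau started 59 bp apart, and Mrps18c and the helicase gene Helq 29 bp apart. Exons of 28 of the genes overlapped an exon on the opposite strand and those of 8 an exon of another gene on the same strand. The sources used here do not say whether counting used the strand, so reads of overlapping genes may be shared between them.

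The 20 libraries were sequenced to an estimated 5138348 to 20669362 counts, and the median gene of the set rested on an estimated 136 to 665 reads per library. Creld1 itself did not separate the genotypes: at E13.5 the knockout libraries ranged from 4.64 to 70.9 and the wild-type libraries from 34.1 to 92.2, at P3 from 23.1 to 82.4 against 21.6 to 146 in atria and from 19.9 to 59.3 against 59.7 to 130 in ventricles. Only the ventricular groups did not overlap, and the limma adjusted p (Benjamini-Hochberg) was 1 in each comparison. Since the deleted exons are not given and the tissue holds other cells, these whole-gene values are a limited check of the labels. Both libraries of the third atrial pair stood apart from the other 4 atria, with 9.33% (wild-type) and 3.13% (knockout) of the summed values in mitochondrially encoded mRNAs against 19.8 to 27.0%. In the wild-type atria of pup 2, the ventricular gene Myl2 reached 9242, while the other 2 wild-type atria did not exceed 40.8. Some results that involve atria are therefore also given without these libraries or by pup.

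Levels differed widely between the genes. On the scale of the deposited normalised value per kilobase of exon, wild-type P3 ventricles gave a median of 151 over the 78 genes, 166 over the large-subunit genes and 110 over the small-subunit genes. Mrpl42, which encodes a large-subunit protein with no bacterial homologue, stood highest at 4554 per kilobase. Mrpl18, a homologue of the bacterial protein that binds the small ribosomal RNA of the large subunit, followed at 1749, and Mrps18c at 1489. The lowest were Mrps5 at 12.8, Mrpl38 at 17.4 and Mrpl23 at 23.0 per kilobase. Mrpl23 has a near-identical processed copy, Mrpl23-ps1, whose own row held higher values, so its level is uncertain. The neighbours Mrps18c, Mrps33 (1455) and Mrps21 (1440) could not be ordered, since their libraries overlapped in the plot of levels per kilobase.

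**Figure D1:**
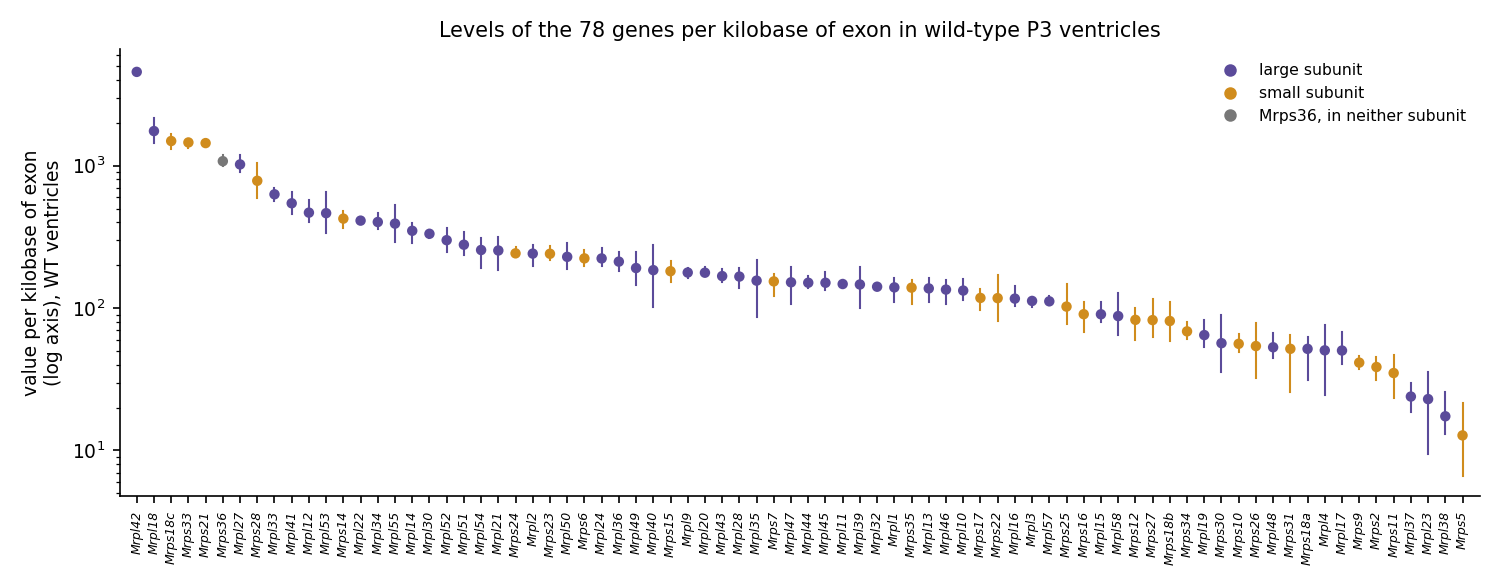
Deposited value per kilobase of exon (log axis) of each of the 78 genes in wild-type P3 ventricles, with points at the mean of 3 libraries and lines from the lowest to the highest library. Mrpl42 stands apart at 4554, most genes lie near the median of 151, and Mrps5 is lowest at 12.8.

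Mrpl42 alone carried 6.4 to 29.7% of the summed signal of the set in a library, so the set was described by its median as well as its sum. The summed values of the 78 genes made up 0.851% ± 0.0457 (SD, n = 3) of the nuclear protein-coding signal in wild-type ventricles and 0.578% ± 0.0527 (n = 3) in wild-type atria. In wild-type E13.5 hearts the share was 0.756% ± 0.0703 (n = 4). The knockout groups gave 0.802% ± 0.0467 in ventricles and 0.603% ± 0.0348 in atria (n = 3 each), and 0.718% ± 0.0602 in E13.5 hearts (n = 4). The 6 ventricular libraries (0.766 to 0.892%) all lay above the 6 atrial libraries (0.519 to 0.639%), whereas within each tissue the genotypes overlapped. The median log2(value + 1) over the 78 genes did not separate the chambers in this way. It was 8.734 in the third knockout atrial library, above all ventricular libraries (8.311 to 8.69). The share without Mrpl42 was not computed. In whole tissue, fewer cells of a type and less RNA per cell cannot be told apart.

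**Figure D2:**
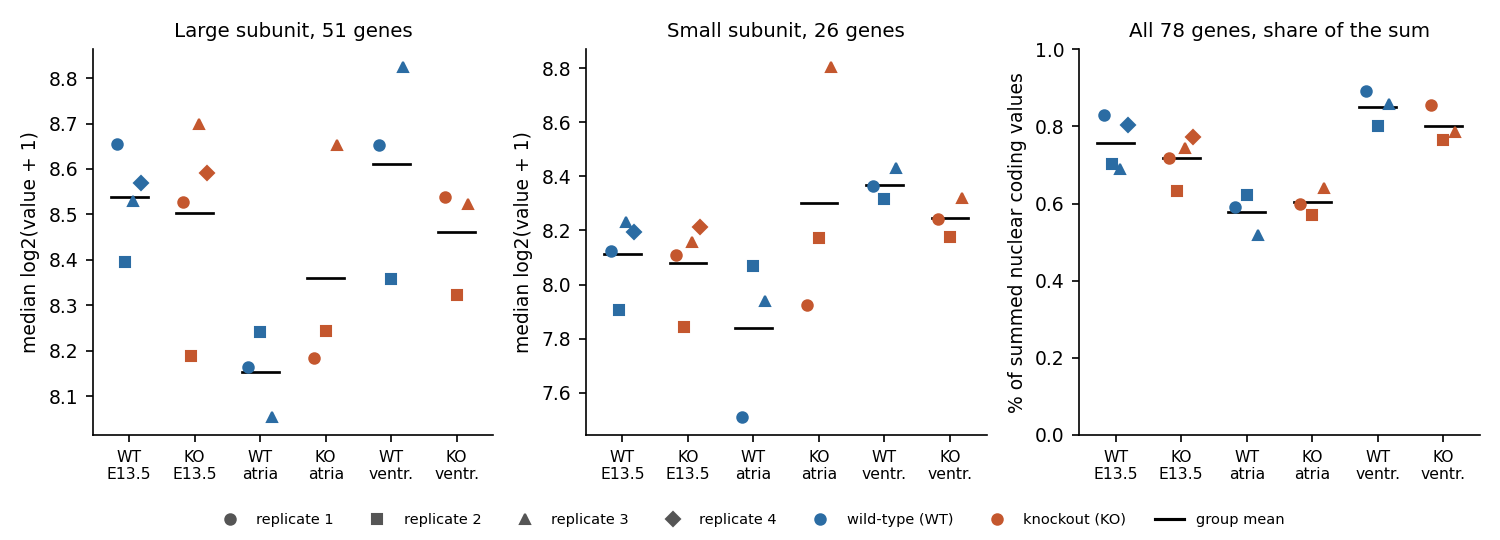
Each library's median log2(value + 1) over the 51 large-subunit and the 26 small-subunit genes, and the share of the summed nuclear protein-coding values held by all 78 genes. Symbols are replicates, colours genotypes and bars group means. The 6 ventricular libraries lie above the 6 atrial ones in the share, and the third knockout atrial library is highest of its group in all 3 panels.

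The spread within groups set what could be seen. Averaged over groups, the SD of log2(value + 1) had a median of 0.55 over the 26 genes of lowest level, 0.39 over the middle 26 and 0.40 over the highest 26. It was smallest for Mrps10 (0.20), Mrpl43 (0.23) and Mrpl30 (0.25), and largest for Mrps11 (1.20), Mrps5 (0.99) and Mrps34 (0.96). The value of Mrps11 in the second knockout ventricular library, 3.88, rested on an estimated 6.4 reads, the fewest of any of the 1560 values, and 4 of these values rested on fewer than 20 reads.

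The first comparison set the knockout against the wild-type libraries within each tissue. No member passed the limma threshold (Benjamini-Hochberg adjusted p under 0.05) at E13.5, in P3 atria or in P3 ventricles. Over all genes tested, 0% were called at E13.5, 0.0276% in atria (0.0221% higher and 0.00552% lower) and 0% in ventricles, so the absence of calls was not particular to this set. At an unadjusted p under 0.05, 0 members were higher and 0 lower at E13.5, 4 higher and 0 lower in atria, and 0 and 0 in ventricles. The shares over all genes tested were 2.39% higher and 1.73% lower at E13.5, 2.95% and 2.37% in atria, and 1.99% and 1.91% in ventricles. The 95% interval of the knockout difference lay within 1 on the log2 scale in both directions for 53 of the 78 genes at E13.5, 29 in atria and 37 in ventricles.

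At E13.5, the median log2 difference, knockout minus wild-type, was -0.07 over the 78 genes and 0.01 over all genes tested, and 35 members were positive (44.9%, against 50.9% of all genes). Mrps2, the homologue of bacterial S2, had the smallest p, with a mean of 128 ± 51.7 (SD, n = 4) in knockout and 202 ± 42.4 (n = 4) in wild-type hearts and a log2 difference of -0.71 (SE 0.36, limma adjusted p = 1). Mrpl24 and Mrpl52 were also lower in the mean, by -0.66 and -0.45, and the positive differences of Mrpl17, Mrpl2 and Mrps11 were 0.52, 0.37 and 0.88. Mrps11 was the only member whose groups did not overlap, with 83.5 to 125 in the knockout and 30.7 to 79.1 in the wild-type libraries, where the share over all genes was 1.3% higher and 1.25% lower. None of these 6 differences passed the test.

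In P3 ventricles, the median difference was -0.11 over the 78 genes and -0.01 over all genes tested, and 23 members were positive (29.5%, against 48.5% of all genes). Of 36 nuclear genes for complex I of the respiratory chain, 35 were negative (median -0.214), as were all 13 mitochondrially encoded mRNAs (-0.286). Of the cytosolic ribosomal protein genes, 42 were positive and 33 negative (0.0181). No difference between these lists and the 78 genes was tested. Mrps30, which despite its name encodes a protein of the large subunit, read 137, 301 and 178 in the knockout and 305, 237 and 592 in the wild-type libraries, a log2 difference of -0.84 (SE 0.43, limma adjusted p = 1). The third wild-type library was high and the groups overlapped. Mrps35 and Mrpl34 followed at -0.58 and -0.54. The largest positive differences by p were those of Mrpl38 (0.94), Mrpl20 (0.44) and Mrps18b (0.68). The groups did not overlap for 3 members in the higher and 5 in the lower direction, against 4.97% and 5.56% of all genes tested.

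In P3 atria, most members were higher in the mean in the knockout. The median difference was 0.22 over the 78 genes and 0.00 over all genes tested, and 57 members (73.1%) were positive, against 49.8% of all genes. Mrps15, whose bacterial homologue binds the ribosomal RNA of the small subunit early in assembly, read 115, 226 and 182 in the wild-type and 326, 289 and 456 in the knockout libraries. All 3 knockout libraries lay above all 3 wild-type libraries. The log2 difference was 1.06 (SE 0.32), with an unadjusted p of 0.00339 from limma and an adjusted p of 0.572. Mrpl11 and Mrpl52 had differences of 0.69 and 0.71 with limma adjusted p = 0.848 and 0.868. Among the lower members by p, Mrps22 stood at -0.55, Mrps30 at -0.45 and Mrpl39 at -0.22. The groups did not overlap for 8 members in the higher and 1 in the lower direction, against 3.92% and 3.99% of all genes tested.

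The atrial median rested on 1 pair. Compared within litters, 49, 36 and 75 of the 78 genes were higher in the knockout in the first, the second and the third pair. The shares of all genes tested were 48.4, 47.9 and 46.3%. The third pair had a median difference of 0.59 over the 78 genes. Without the third pair the median of the knockout difference in atria was 0.09. The summed level of 10 erythroid markers was 15591 to 18829 in the wild-type and 31084 to 133130 in the knockout atria, with 5 of the 10 at 0 in at least 1 library of the series. For 10 fibroblast markers the wild-type atria gave 82657 to 86190 and the knockout atria 63540 to 64602, with none at 0. For 10 cardiomyocyte markers they gave 121100 to 192040 and 187650 to 199590, with none at 0. The fibroblast markers did not move together. In the knockout, 6 were lower and 4 higher, from -1.82 to 1.22 on the log2 scale, and 1 was called lower (limma adjusted p = 0.0133). Of the erythroid markers, 9 were higher and 1 lower, and of the cardiomyocyte markers 6 were higher and 4 lower. The part of these markers in the result was not tested. The cytosolic ribosomal protein genes had a median difference of 0.65 in the same comparison, with 38 of 75 at an unadjusted p under 0.05, all higher, and 0 called by limma after adjustment. The difference between the knockout effects of the 2 chambers was tested directly, and 0 of the 78 genes (0% of all genes) passed. The nearest to the threshold was Mrps15, whose knockout effect in ventricles minus that in atria was -1.50 on the log2 scale (limma adjusted p = 1).

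**Figure D3:**
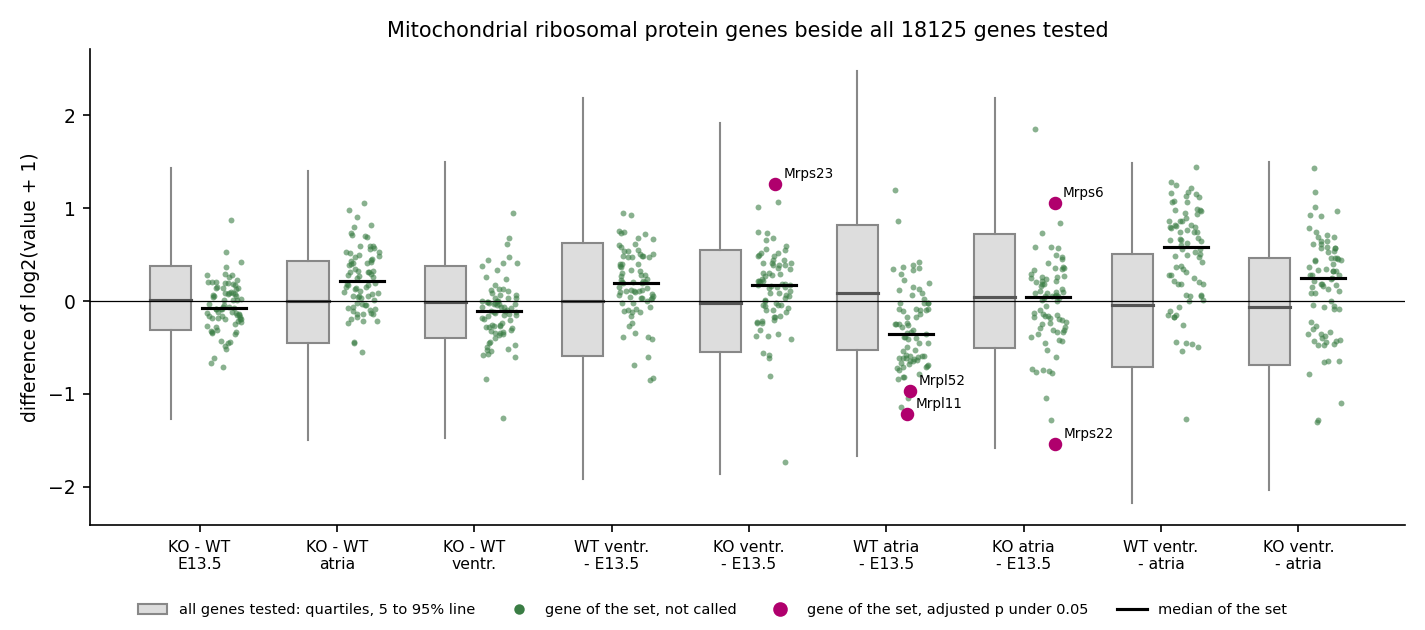
Log2 differences of the 78 genes (points, with their median as a bar) beside the quartiles and the 5 to 95% range of all 18125 genes tested, in the 3 knockout, the 4 stage and the 2 chamber comparisons. The 5 called genes are named, and the members' median is farthest from 0 in the wild-type ventricles minus atria (0.58).

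Between E13.5 hearts and P3 ventricles, no wild-type member of the set was called. Of the 78 genes, 0 passed the threshold of limma, where 5.09% of all genes were called (3.35% higher and 1.74% lower). At an unadjusted p under 0.05, 4 were higher and 1 lower, against 9.84% and 7.53% of all genes. The median log2 difference, P3 ventricles minus E13.5 hearts, was 0.20 over the 78 genes and 0.00 over all genes tested, and 58 members were positive (74.4%, against 49.9% of all genes). The share of non-overlapping members was 12 of 78 higher and 2 lower, against 10.3% and 8.41% of all genes. By contrast, 23 of 36 nuclear genes for subunits of complex I were called higher in the same comparison, with a median of 1.05. The 13 mitochondrially encoded mRNAs had a median of 1.52, and mt-Co1 and mt-Co3, which encode subunits of cytochrome c oxidase, rose by 2.15 and 1.89 (limma adjusted p = 0.0214 and 0.0289). The difference between these lists and the 78 genes was not tested.

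In knockout mice, 1 of the 78 genes was called between E13.5 hearts and P3 ventricles, where 2.74% of all genes were called (1.79% higher and 0.954% lower). This was Mrps23 (chr11:88204388-88211507, plus strand, with up to 5 exons in an annotated transcript), which encodes a small-subunit protein without a bacterial homologue. It read 134, 132, 148 and 164 in knockout E13.5 hearts (mean 144 ± 14.9, SD, n = 4) and 316, 357 and 367 in knockout ventricles (347 ± 27.0, n = 3). The ventricular libraries all lay above the embryonic ones. Mrps23 rose by 1.26 on the log2 scale (SE 0.29, limma adjusted p = 0.019). The call was lost in 7 of 30 other settings. It was lost without knockout E13.5 replicate 1 or 2 and without any 1 of the 3 knockout ventricular libraries (limma adjusted p = 0.0507 to 0.0922 over these 5). The other settings were a common sum over nuclear protein-coding genes (limma adjusted p = 0.0695) and the libraries of 2018 only. In wild-type mice it read 202, 225, 139 and 231 in E13.5 hearts and 425, 362 and 340 in ventricles, also without overlap, with a log2 difference of 0.93 and a limma adjusted p of 0.0735. The difference between the genotypes was 0.33 (SE 0.42, limma adjusted p = 1). The median over the 78 genes in knockout mice was 0.17, against -0.02 over all genes tested. At an unadjusted p under 0.05, 6 members were higher and 1 lower, against 8.03% and 6.3% of all genes, and the groups did not overlap for 11 members, all higher in ventricles, against 8.94% of all genes in that direction.

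Between E13.5 hearts and P3 atria, most wild-type members were lower in the atria. The median was -0.35 over the 78 genes and 0.09 over all genes tested, and 17 members (21.8%) were positive, against 53.9% of all genes. Of the 78 genes, 2 were called lower, where 5.5% of all genes were called (3.11% higher and 2.39% lower), and 17 were lower at an unadjusted p under 0.05 with 0 higher, against 8.55% and 10.6% of all genes. The groups did not overlap for 12 members, all lower in atria, against 6.74% of all genes in that direction and 8.07% in the other. Mrpl11 (chr19:4962147-4966999, plus strand, up to 5 exons) encodes the homologue of the bacterial protein at the base of the ribosomal stalk. It read 465, 434, 494 and 472 in wild-type E13.5 hearts (466 ± 24.5, SD, n = 4) and 286, 153 and 182 in wild-type atria (207 ± 70.0, n = 3). Every atrial library lay below every embryonic one, and Mrpl11 fell by 1.22 (SE 0.26, limma adjusted p = 0.00736), a call lost in 1 of 30 other settings (the libraries of 2018). In knockout mice it read 327, 355, 489 and 322 in E13.5 hearts and 396, 274 and 308 in atria, which overlapped, with a log2 difference of -0.19.

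Mrpl52 (chr14:54426909-54429756, plus strand, up to 5 exons), whose promoter window is printed above, encodes a large-subunit protein without a bacterial homologue. It read 530, 314, 488 and 447 in wild-type E13.5 hearts (445 ± 93.5, SD, n = 4) and 217, 301 and 167 in wild-type atria (228 ± 67.9, n = 3). The highest atrial library was just below the lowest embryonic one. Mrpl52 fell by 0.97 (SE 0.28, limma adjusted p = 0.0435), and this call was lost in 17 of 30 other settings. It was lost without wild-type E13.5 replicate 1, 3 or 4, wild-type atrial replicate 1 or 3, wild-type ventricular replicate 1 or 2, knockout E13.5 replicate 1 or 3, knockout atrial replicate 2, or knockout ventricular replicate 1 or 2 (limma adjusted p = 0.05 to 0.171 over these 12 libraries left out in turn). The other 5 were the third atrial pair left out (0.117), no filter on low values, a common sum, array weights and the libraries of 2018 (0.534). In knockout mice it read 281, 386, 343 and 277 in E13.5 hearts and 312, 358 and 426 in atria, a difference of 0.19. The test of the difference between the genotypes gave 1.16 for Mrpl52 and 1.03 for Mrpl11, with limma adjusted p = 0.939 for each.

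In knockout mice, 1 member was called higher and 1 lower in P3 atria than in E13.5 hearts, where 1.95% and 0.855% of all genes were called. Mrps22 (chr9:98588730-98601660, minus strand, up to 8 exons) encodes a small-subunit protein without a bacterial homologue, and its defects cause cardiomyopathy in people. It read 503, 685, 534 and 380 in knockout E13.5 hearts (525 ± 125, SD, n = 4) and 150, 256 and 141 in knockout atria (182 ± 63.8, n = 3), and the groups were well separated. Mrps22 fell by 1.54 (SE 0.37, limma adjusted p = 0.0258). The call was lost in 6 of 30 other settings: without knockout E13.5 replicate 1, 2 or 3, without knockout atrial replicate 1 or 3 (limma adjusted p = 0.0518 to 0.118 over these 5) and with the libraries of 2018 (0.617). The wild-type libraries read 289, 470, 479 and 484 at E13.5 and 359, 363 and 130 in atria, which overlapped, with a difference of -0.71. Mrps6 (chr16:92058270-92112227, plus strand, up to 3 exons) encodes the homologue of bacterial S6, which sits beside S18 on the small subunit. It read 344, 276, 279 and 271 in knockout E13.5 hearts (293 ± 34.7, SD, n = 4) and 593, 729 and 511 in knockout atria (611 ± 110, n = 3). Mrps6 rose by 1.05 (SE 0.27, limma adjusted p = 0.0338). The call was lost in 8 of 30 other settings: without knockout E13.5 replicate 2, 3 or 4, without any 1 of the 3 knockout atrial libraries (limma adjusted p = 0.052 to 0.136 over these 6), without a filter on low values (0.0538) and with the libraries of 2018 (0.376). Without both libraries of the third atrial pair, Mrps22 and Mrps6 were called, with differences of -1.39 and 1.17 (limma adjusted p = 0.0317 and 0.0125). Exons of Mrps6 share 464 bp with the predicted gene Gm49711 on the same strand, so some of its reads may belong to that gene. The difference between the genotypes was -0.83 for Mrps22 and 0.70 for Mrps6, with limma adjusted p = 0.999 for each.

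**Figure D4:**
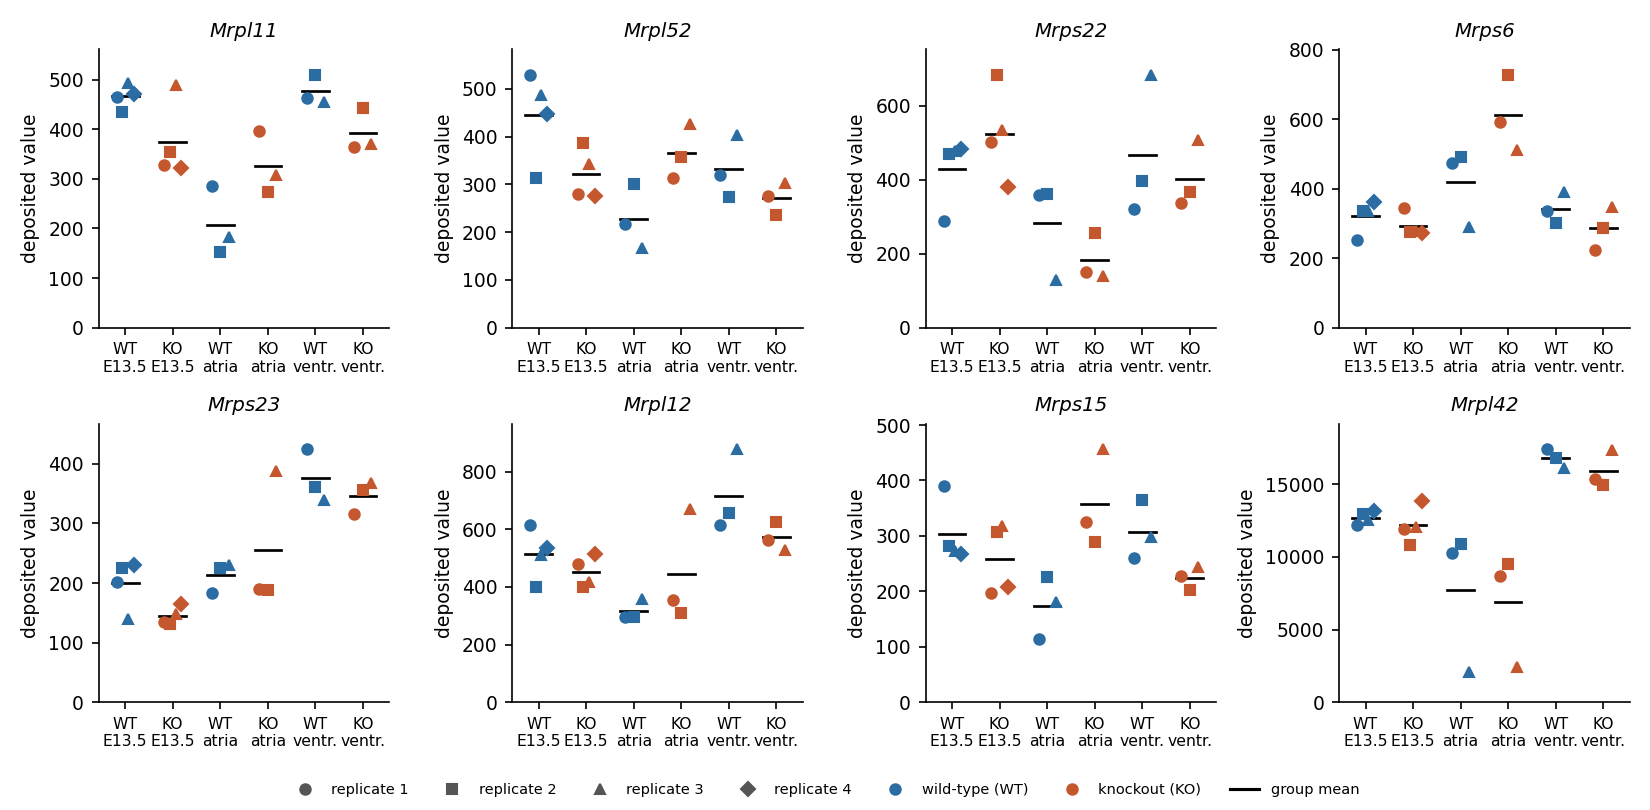
Deposited values of 8 of the genes in every library (symbols are replicates, colours genotypes, bars group means; each axis starts at 0). Mrpl11 and Mrpl52 are low in wild-type atria, Mrps22 is low and Mrps6 high in knockout atria, Mrps23 is higher in ventricles than in E13.5 hearts, and Mrpl42 is low in both libraries of the third atrial pair.

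Stage and tissue changed together in these comparisons, because the embryonic libraries came from whole hearts. They also differed in the labels' preparation year. This year was 2016 for 6 and 2018 for 2 of the 8 embryonic libraries, whereas it was 2018 for all 12 P3 libraries. In each case it was also the year in the litter identifier, so it may date the tissue rather than the library. With only the libraries of 2018, which leave 1 E13.5 library per genotype, 0 of the 78 genes were called in wild-type atria, knockout ventricles or knockout atria, where 0.669%, 1.11% and 1.14% of all genes were called, and the lone embryonic library was assumed to vary like the others. The median difference of wild-type atria was then -0.47, and that of Mrpl11 had a limma adjusted p of 0.358. Erythroid marker sums at E13.5 were 60900 to 234930 in wild-type hearts, above every wild-type P3 library. In knockout hearts they were 47332 to 245730, above the knockout ventricles (17653 to 30962) but overlapping the knockout atria (31084 to 133130). Their part in the stage differences was not tested. Without the third atrial pair, 4 members were called higher in wild-type ventricles than in E13.5 hearts (Mrps23, Mrpl30, Mrpl42 and Mrpl33), 5 in knockout ventricles (Mrps23, Mrpl16, Mrpl15, Mrpl42 and Mrpl33) and 1 lower in wild-type atria (Mrpl11). Of the 17683 genes tested without this pair, 5.52% were called higher in wild-type ventricles, 3.92% higher in knockout ventricles and 2.67% lower in wild-type atria, so the calls of all genes rose as well in both ventricular comparisons.

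In P3 hearts, most of the genes were higher in ventricles than in atria. Within wild-type pups, 64 of the 78 genes (82.1%, against 47.8% of all genes) had a positive mean difference, ventricles minus atria, and the median was 0.58, against -0.04 over all genes tested. No member was called by limma, where 0.0828% of all genes were called, 0% higher and 0.0828% lower. At an unadjusted p under 0.05, 23 members were higher and 0 lower, against 4.25% and 5.56% of all genes. The ventricular libraries lay above all atrial ones for 36 of the 78 genes and below for 1, against 7.8% and 8.2% of all genes.

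Mrpl12 encodes the homologue of the bacterial stalk protein that recruits translation factors, and it is also known to bind the mitochondrial RNA polymerase. It lies at chr11:120484613-120489065 on the plus strand. It read 297, 296 and 358 in the wild-type atria and 616, 657 and 878 in the ventricles of the same pups. All ventricular values were higher, with a log2 difference of 1.16 (SE 0.34, limma adjusted p = 0.326). Mrpl11 had a difference of 1.25 (adjusted p = 0.279) and Mrps36 of 1.07 (adjusted p = 0.391). That of Mrps36 was 0.65, 0.61 and 1.94 in wild-type pups 1, 2 and 3. When the pup was not used as a block, Mrpl11 and Mrpl12 were called, with limma adjusted p = 0.0222 and 0.0434, where 1.5% of all genes were called. On the other side, Mrpl38 had a difference of -1.27, Mrpl37 of -0.54 and Mrpl28 of -0.45, and that of Mrpl37 was 0.11 without the third atrial pair.

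In knockout pups, the median difference, ventricles minus atria, was 0.24 over the 78 genes and -0.06 over all genes tested. Of the members, 50 were positive (64.1%, against 46.6% of all genes). Again 0 members were called, where 0.199% of all genes were, and 3 were higher and 1 lower at an unadjusted p under 0.05, against 4.04% and 5.17% of all genes. Mrps36 read 784, 565 and 679 in knockout atria and 1169, 1209 and 1747 in the ventricles, without overlap, a log2 difference of 1.01 (limma adjusted p = 0.441). Mrpl42 had a difference of 1.43 and Mrps18c of 0.92, both largest in pup 3. In knockout pups 1, 2 and 3, Mrpl42 gave 0.820, 0.654 and 2.825, and Mrps18c 0.552, 0.513 and 1.683. Mrps6, Mrps15 and Mrps11 stood on the other side at -1.10, -0.64 and -1.28, of which Mrps6 and Mrps15 did not overlap between chambers. The knockout pups differed in sign for Mrps11, at 1.47, -2.97 and -2.34 in pups 1, 2 and 3. Over the set, the chambers did not overlap for 18 members higher in ventricles and 3 lower, against 8.08% and 8.79% of all genes tested. Mrps6 read 593, 729 and 511 in knockout atria and 225, 288 and 346 in the ventricles.

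The same direction was seen in 5 of the 6 pups. In wild-type pups 1, 2 and 3, 64, 56 and 55 of the 78 genes were higher in the ventricles, and in knockout pups 64, 56 and 37. Of all genes tested, 49.6, 48.3 and 42.9% were higher in the ventricles of wild-type pups 1, 2 and 3, and 47.3, 49.5 and 43.3% in knockout pups. For wild-type pups the medians over the 78 genes were 0.54, 0.26 and 0.71, for knockout pups 0.50, 0.34 and -0.11. Over all genes tested, the medians in pup 3 were -0.28 in the wild-type and -0.25 in the knockout. In the other pups they were 0, or -4e-04 in knockout pup 1. Of the 78 genes, 20 (25.6%) were higher in the ventricles of all 6 pups, compared with 5.2% of all genes tested. Only Mrpl38 was lower in all 6, compared with 1188 of the 18125 genes tested. Of these 20, 13 belong to the large subunit, 6 to the small subunit, and the other is Mrps36. In the 3 wild-type pups 40 genes (51.3%, against 13.7%) and in the 3 knockout pups 29 (37.2%, against 14.7%) were higher in every pup. Over the 6 groups, wild-type atria held the lowest mean of 36 of the 78 genes (15.7% of all genes tested) and wild-type ventricles the highest mean of 29 (15.7%).

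**Figure D5:**
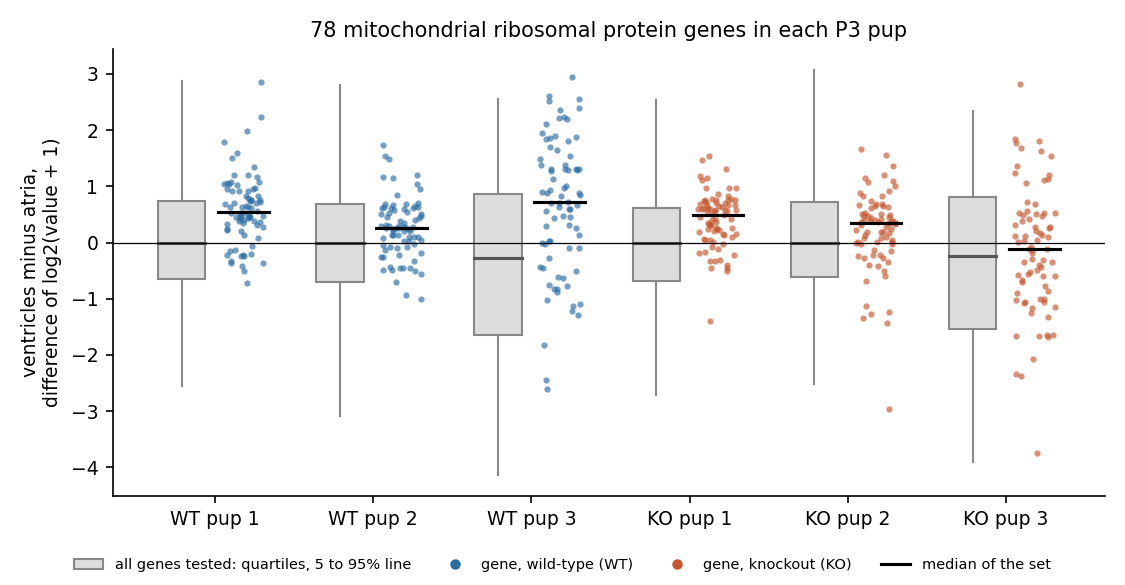
Log2 difference, ventricles minus atria, of each of the 78 genes within each P3 pup (points, with their median as a bar), beside the quartiles and the 5 to 95% range of all genes tested. The members' median is above 0 in 5 pups and at -0.11 in knockout pup 3, where that of all genes tested is -0.25.

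Other quantities differed between the chambers as well. In wild-type pups, 71 of 75 cytosolic ribosomal protein genes were higher in ventricles (median 0.622). So were all 36 nuclear complex I genes (0.954) and all 13 mitochondrially encoded mRNAs (1.5). In knockout pups, all genes of the latter 2 lists were higher (0.642 and 2.02), and 35 cytosolic genes were higher and 40 lower (-0.0233). No difference between these lists and the 78 genes was tested. The summed cardiomyocyte markers were 278170 to 326150 in wild-type ventricles and 121100 to 192040 in wild-type atria, and 270930 to 312390 against 187650 to 199590 in the knockout. The fibroblast markers were 49850 to 54577 in ventricles and 82657 to 86190 in atria of wild-type pups, whereas in knockout pups the ventricles (51470 to 66104) and the atria (63540 to 64602) overlapped. In both genotypes, all 10 cardiomyocyte markers were higher in the mean in ventricles. Of the fibroblast markers, 9 were lower and 1 higher in wild-type ventricles, and 6 lower and 4 higher in knockout ventricles. All 10 cardiomyocyte markers and all 10 fibroblast markers were above 0 in every library. Their part in the result was not tested. Without wild-type pup 2, whose atria held Myl2, the wild-type median was 0.70. Without the third atrial pair, the medians were 0.47 in wild-type and 0.32 in knockout pups. The knockout effect in ventricles minus that in atria had a median of -0.32 over the 78 genes with all pups and -0.05 without that pair.

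The third atrial pair differed from the other atria in both directions. Compared with the mean log2 of the other 4 atria, its 2 libraries together ranged from -2.11 to 2.23 over the 78 genes, with an SD of 0.97 and a median of 0.14, against 0.26 over all genes tested. Mrpl42 (chr10:95480805-95501940, minus strand) read 2094 and 2450 in this pair and 8714 to 10855 in the other atria. Mrpl33, Mrpl47 and Mrps33 were lower by -1.59, -1.56 and -1.49. Mrps11 read 208 and 288 against 37.1 to 78.5, and Mrpl4, Mrps18a and Mrpl28 were higher by 1.99, 1.90 and 1.90. Both libraries lay below all other atria for 14 members and above them for 23, against 19.2% and 26.1% of all genes tested. The direction differed with the level: the median was 0.79 over the 26 genes of lowest level per kilobase, 0.07 over the middle 26 and -0.13 over the highest 26.

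Among the members with a known particular role, none but those above was called in a comparison of stage, chamber or genotype. The 3 paralogues of bacterial S18, of which Mrps18a belongs to the large and Mrps18b and Mrps18c to the small subunit, stood at different levels. In wild-type ventricles the deposited value per kilobase of exon was 51.7 for Mrps18a, 81.1 for Mrps18b and 1489 for Mrps18c. The means of the value itself were 191 ± 65.0, 169 ± 54.3 and 1602 ± 190 (SD, n = 3 each), and Mrps18c was above the other 2 in every library of the series. Mrps12 (chr7:28739641-28741820, minus strand), the homologue of the bacterial S12 of the decoding centre, had group means from 86.0 to 132.

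Mrpl3, Mrpl44 and Mrps14 are, like Mrps22, linked to cardiomyopathy in people. Mrpl3, whose bacterial homologue reaches the peptidyl transferase centre, averaged 747 ± 63.8 in wild-type and 587 ± 124 in knockout ventricles (SD, n = 3 each), a log2 difference of -0.37 (limma adjusted p = 1). Mrpl44, related to ribonuclease III, averaged 248 ± 24.2 and 217 ± 45.7 there. Mrps14 averaged 1384 ± 191 and 1271 ± 318. Each of these 3 genes was higher in the ventricles of all 6 pups. Their knockout differences in the 3 tissues ran from -0.37 to 0.14.

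A further 5 subunits of these ribosomes have other names. None of Dap3, Ptcd3, Chchd1, Aurkaip1 and Gadd45gip1 was called in any of the 9 comparisons. Dap3, a small-subunit protein that binds GTP, was nearest to the threshold in wild-type atria against E13.5 hearts, at -0.87 (limma adjusted p = 0.0913). Its knockout difference at E13.5 was -0.72 (adjusted p = 0.979). Ptcd3 had a knockout difference of -0.81 in ventricles (adjusted p = 1).

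The factors that build and serve these ribosomes were described by lists, whose counts stand beside the shares of all genes called in the same comparisons (5.5% in wild-type atria, 2.8% in knockout atria and 5.09% in wild-type ventricles, each against E13.5 hearts). Of 26 genes for assembly and rRNA modification, 1 was called lower and 1 higher in wild-type atria against E13.5 hearts, with a list median of -0.02. These were C1qbp, a mitochondrial matrix protein, which fell by 1.29 (limma adjusted p = 0.0136), and the endonuclease gene Ybey, which rose by 1.96 (adjusted p = 0.0454). Fastkd2, an RNA-binding protein of the mitochondrial RNA granules, fell by 1.53 in knockout atria against E13.5 hearts (adjusted p = 0.00603). Of 16 translation factors, Lrpprc, which stabilises mitochondrial mRNAs, was called, and rose by 0.89 in wild-type ventricles against E13.5 hearts (adjusted p = 0.0374). Of 22 mitochondrial aminoacyl-tRNA synthetases, Ears2 and Gars, of which Gars also serves the cytosol, fell by 2.25 and 1.06 in wild-type atria (adjusted p = 0.00616 and 0.0237).

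Of 10 regulators of mitochondrial gene expression, the coactivator gene Ppargc1b rose by 1.67 in wild-type ventricles against E13.5 hearts (limma adjusted p = 0.0121). The cytosolic ribosomal protein genes served as the other ribosome of the cell. In wild-type atria against E13.5 hearts, 55 of 75 of them were called lower (2.39% of all genes were), with a median of -1.19, where the 78 mitochondrial genes had 2 called and a median of -0.35. In wild-type ventricles their median was -0.61 and that of the mitochondrial genes 0.20. The difference between the lists was not tested. In the 3 knockout comparisons, 0 genes of any of these lists were called.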

How the data were processed

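RNA was extracted with the RNeasy Micro kit and libraries were made with SMART-Seq2, a full-length method without molecular identifiers, per the labels' protocols. Named in the submitters' processing notes are the build mm10 and the tools DESeq2, STAR 2.5.1 and bcl2fastq 2.2. The deposited values are a normalised signal per gene, 1 table for 20 libraries, and how the authors scaled them is not given in the sources used here. In pseudogene, TEC, snoRNA and miRNA rows, 99.7 to 99.8% of low values (up to 100 reads, tolerance 0.001) were whole multiples of 1 value per library (0.562 to 2.212), but only 45.2 to 64.6% over all genes. Reads were therefore estimated from that value and no count test was run. Estimated reads cover counting error only.

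The test was limma 3.58.1 (R 4.3.3) on log2(value + 1), which understates changes of low genes, over genes that reached 10 in 3 or more libraries. All 6 groups shared 1 fit (14 residual degrees of freedom). Chambers were compared in a separate fit on the 6 within-pup differences (4 residual degrees of freedom), which uses the pup as a block. P-values were adjusted by Benjamini-Hochberg over all 18125 genes, with a threshold of 0.05. Lengths are unions of exons in GENCODE M21, matched by gene ID. Alternatives were other pseudocounts and filters, TMM factors (trimmed mean of log ratios), a common sum, array weights, left-out libraries and the replicate block. The scripts were tested on simulated data, with libraries drawn independently. The changed genes were drawn from all tested genes above a low level, so the shares found are not those of the 78 genes. The median SE of the knockout difference at E13.5 was 0.333 over the 78 genes and 0.625 over all genes tested. Of 100 genes changed by 1 on the log2 scale, 2 to 7% were called in the knockout and stage comparisons tried. Of 100 genes changed by 2, 40 to 60% were called there. In the wild-type chamber comparison 0 of 100 were called at either size, so an absence of calls there does not show an absence of change.

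Genes were named by rule: every called gene, the 3 of smallest p per direction in the knockout and chamber comparisons, the highest and lowest 3 per kilobase, and genes of known role. A few others were named after their values were seen. The members, lists and tests were chosen with earlier results of these data known. Same-numbered libraries came from 1 litter, per the labels, in 3 litters at each age. Their deviations from group means correlated at 0.212 to 0.638 in atria, 0.02 to 0.0658 in ventricles and -0.0159 to 0.0159 at E13.5.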

Additional observations from a re-analysis of the deposited data

Results flagged for a closer look

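In 58 sets of 4 embryonic libraries checked, 5 held a library far from the rest (a gap to the nearest library above Dixon's 95% critical value), where chance gives about 1 in 20. Mrps15 read 390.7 in wild-type E13.5 replicate 1 and 267.9 to 282.2 in the other 3. Mrps22 read 289.2 in the same library and 470.2 to 484 in the others. Mrps30 read 143 in knockout E13.5 replicate 1 and 355.6 to 398.2 in the others, and Mrps6 read 344.4 there and 271.1 to 279.1 in the others. The median log2(value + 1) over the 78 genes was 8.147 in knockout E13.5 replicate 2 and 8.437 to 8.487 in the other 3. No member differed between tissues or stages in its knockout effect after adjustment (limma).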

How the results depend on the processing

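In the knockout comparisons, 0 members were called under every setting run, the replicate block included (adjusted p of Mrps15 in atria 0.269, limma). The counts of called members in the stage comparisons moved. Without a filter on low values, 1 was called in wild-type atria and 1 in knockout atria against E13.5 hearts. With a common sum over nuclear protein-coding genes, which shifted the median of all genes by up to -0.213, 1 was called in wild-type atria and 0 in knockout ventricles, and the medians were 0.0763 in wild-type ventricles and -0.249 in wild-type atria. Array weights gave 2 calls in wild-type and 3 in knockout ventricles. A stricter filter, 50 or more in 10 or more libraries, gave 3 in wild-type atria. For the filters, the common sum, array weights and single left-out libraries, the share of all genes called is not given here. The counts under these settings therefore do not tell whether the set moved apart from all genes. Without the third atrial pair, an alternative chosen after seeing the data, 4 were called in wild-type ventricles, 5 in knockout ventricles and 1 in wild-type atria, with a median of -0.238 there. The difference of Mrpl37 between wild-type chambers reversed to 0.107 without that pair or wild-type pup 3 (range over left-out pups -1.12 to 0.107). Without the pup as a block (no replicate block), 2 were called between wild-type chambers. With libraries of 2018 only, 0 were called in wild-type atria (median -0.472), knockout ventricles and knockout atria.

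Leaving out 1 library or pup gave 1 to 3 calls in wild-type atria (medians -0.422 to -0.238), 0 to 1 in wild-type ventricles, 0 to 2 in knockout ventricles and 0 to 2 in knockout atria. Fewer libraries were tested there, and for the other settings the cause was not tested. The 3 or 4 libraries a group limited the precision: the 95% interval of the knockout difference lay within 1 on the log2 scale for 29 to 53 of the 78 genes, and even the difference of -1.27 of Mrpl38 between wild-type chambers was not called.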
